A study of Mus musculus with 8 samples.

Results

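The genes described here are 35 enzymes of amino acid breakdown and of the urea cycle. They were chosen by their place in the pathway, with earlier results of these data known. They are 35 of the 20165 genes or unnamed transcripts that the arrays measured, of which 12885 had a gene symbol. Each gene is represented by 1 probe, the brightest one kept. All 35 genes had such a probe, and all 35 were well above background on all 8 arrays. Of the 35, 34 had a mean at or above the 75th percentile of an array and 1, Amt, lay below it.

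Liver RNA came from male C57BL/6 mice bought when 5 weeks old and fed without restriction, and 1 array was hybridised per mouse. The 4 groups, of 2 mice each, were a high-fat diet (HFD) for 9 months, a normal diet (ND) for 9 months, HFD for 3 months and ND for 3 months. The HFD supplied 5.2 kcal/g and held 58% fat, 25.5% carbohydrate and 16.4% protein. The ND supplied 3.8 kcal/g and held 4.8% fat, 50.21% carbohydrate and 20.78% protein, and the labels do not say whether these shares are by weight or by energy. The 2 diets thus differed in protein and carbohydrate as well as in fat. Levels are log2 intensities relative to the 75th percentile of their array. Differences are log2 HFD minus ND, or 9 minus 3 months, with their standard error (SE) from the limma fit.

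The liver removes the nitrogen of amino acids in a relay. Transaminases and deaminases pass amino groups to glutamate and aspartate or release them as ammonia, the urea cycle in periportal hepatocytes turns these into urea, and glutamine synthetase in pericentral hepatocytes takes up ammonia that escapes it. The carbon skeletons go to glucose, ketone bodies or oxidation, and methionine also supplies methyl groups and, through transsulfuration, cysteine.

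The 75th percentile of intensity was 185 to 428 on the HFD arrays and 482 to 597 on the ND arrays, with the minimum of 185 on HFD 9 months mouse 2. All HFD arrays lay on 1 slide and all ND arrays on the other, so diet and slide cannot be told apart. Within a slide, duration in turn cannot be told apart from the row that an array occupied. The summed level of 8 hepatocyte marker genes is given as multiples of the 75th percentile of an array. At 9 months it was 3404 to 5504 on HFD and 4519 to 4559 on ND. At 3 months it was 3216 to 3425 on HFD and 4776 to 5260 on ND, although Apoa1 and Asgr1 went the other way, at 0.23 and 0.02. The 6 periportal markers summed to 580 to 635 on HFD and 889 to 1056 on ND at 9 months, and to 746 to 822 on HFD and 933 to 939 on ND at 3 months. Of these 6, Hsd17b13 and Aldh1b1 went the other way at 9 months, at 0.66 and 0.86. At 3 months 3 of the 6 were higher on HFD and 3 lower. The higher ones were Hsd17b13, Aldh1b1 and Pck1, at 0.99, 1.23 and 0.20. The sum of 6 markers of lipid-associated macrophages was 34.8 to 42.7 on HFD and 10.3 to 11.8 on ND at 9 months, and 10.2 to 14.5 on HFD and 7.61 to 7.93 on ND at 3 months. Among these macrophage markers Cd9 went the other way at 3 months, at -0.36. Of 5 adipocyte markers listed, only Fabp4 and Cidec were measured, and Adipoq, Plin1 and Lep were not. At 9 months Fabp4 and Cidec summed to 41.2 to 75.5 on HFD and 7.86 to 21.0 on ND. Cidec itself overlapped, at 6.07 and 4.21 on HFD against 4.27 and 2.73 on ND. The 5 endothelial markers summed to 50.7 to 59.1 on HFD and 34.4 to 41.4 on ND at 9 months. Of these 5, Kdr and Pecam1 went the other way, at -0.60 and -0.09. At 3 months the endothelial sums overlapped, at 45.6 to 50.3 on HFD and 40.4 to 51.9 on ND. The 8 pericentral markers summed to 845 to 1370 on HFD and 1007 to 1070 on ND at 9 months. Their sums at 3 months were 879 to 949 on HFD and 1042 to 1137 on ND, with 3 of the 8 higher on HFD. The 7 measured macrophage and Kupffer markers summed to 111 to 190 on HFD and 124 to 376 on ND at 9 months. Their sums at 3 months were 91.9 to 112 on HFD and 62.8 to 72.8 on ND, with 2 of the 7 lower on HFD. The part of these differences in the results below was not tested, and in whole liver fewer cells of a type and less RNA per cell cannot be told apart.

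At 9 months the enzymes were lower on HFD in most branches of the pathway. Of the 35, 28 were below 0 (80%, against 48.9% of all features), with a median of -0.66, against a median of 0.02 over all features. Only 4 passed the test (limma, Benjamini-Hochberg adjusted p under 0.05 over all features), all lower on HFD: Tat, Got1, Asl and Gls2. That is 11.4% of the members, where 4.73% of all features passed as lower and 8.28% in either direction. None of the 35 passed as higher on HFD, where 3.56% of all features did. On 23 members both HFD arrays lay below both ND arrays (65.7%, against 26.1% of all features), and on 3 both lay above (8.57%, against 28.5%). The count of 4 was 0 without either ND 3-month mouse, 0 without ND 9 months mouse 2, 1 without ND 9 months mouse 1, 2 without either HFD 3-month mouse and 11 without HFD 9 months mouse 1. The share of all features that passed moved too: it was 2.42%, 1.81%, 4.3%, 6.95% and 11.2% in these fits, in the order named. Over the 8 fits that left out 1 array, Tat passed in 5, Got1 in 3, Asl in 1 and Gls2 in 0.

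**Figure D1:**
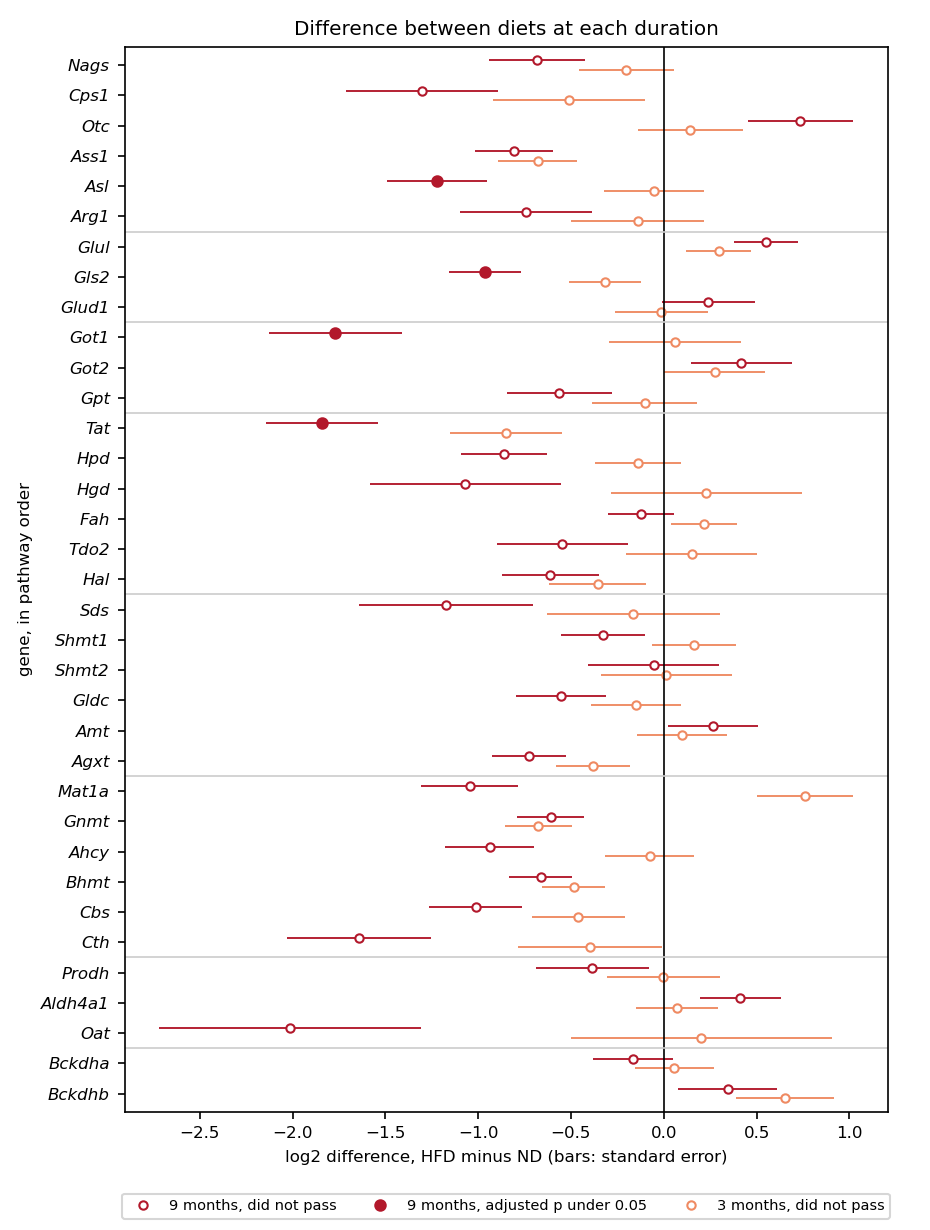
Log2 difference HFD minus ND (x axis, bars are the standard error) for each of the 35 genes (y axis, in pathway order), at 9 months (dark red) and 3 months (orange), 2 arrays per group. Filled points passed an adjusted p of 0.05: Asl, Gls2, Got1 and Tat at 9 months, and no gene at 3 months.

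Tat, tyrosine aminotransferase, which opens tyrosine breakdown, had levels of 5.34 and 4.85 on HFD at 9 months, against 6.68 and 7.20 on ND at 9 months. At 3 months Tat had levels of 5.69 and 6.26 on HFD, against 6.86 and 6.79 on ND. The HFD arrays lay below the ND arrays at both durations without overlap. Tat fell at 9 months by 1.84 ± 0.30 (SE, limma adjusted p = 0.023). The 3-month difference of -0.85 ± 0.30 did not pass (limma adjusted p = 0.14).

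Got1, the cytosolic aspartate transaminase, had levels of 5.53 and 4.70 on HFD at 9 months, against 7.01 and 6.75 on ND at 9 months. At 3 months its levels were 6.07 and 6.61 on HFD, against 6.53 and 6.02 on ND. The groups were apart at 9 months and overlapped at 3 months. Got1 fell at 9 months by 1.77 ± 0.36 (SE, limma adjusted p = 0.037). Its mitochondrial counterpart Got2 was at 0.42 ± 0.27 at 9 months and Gpt, the alanine transaminase, at -0.56 ± 0.28, and neither passed.

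Asl, argininosuccinate lyase, which releases arginine and fumarate in the urea cycle, had levels of 5.56 and 5.00 on HFD at 9 months, against 6.25 and 6.75 on ND at 9 months. At 3 months the levels were 5.89 and 6.14 on HFD, against 6.08 and 6.05 on ND. The 9-month groups did not overlap and the 3-month groups did. Asl fell at 9 months by 1.22 ± 0.27 (SE, limma adjusted p = 0.046).

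The other urea cycle genes did not pass at 9 months. Cps1, the mitochondrial enzyme that makes carbamoyl phosphate, was at -1.30 ± 0.41, with levels of 4.81 and 3.55 on HFD against 5.29 and 5.67 on ND. Nags, whose product activates Cps1, was at -0.68 ± 0.26, and Arg1, the arginase that releases urea, at -0.74 ± 0.36. Otc, which joins carbamoyl phosphate to ornithine, was the exception in sign at 0.74 ± 0.28. The probes of Otc disagree, since a dimmer one printed in 10 spots gave -0.05.

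Gls2, the liver-type glutaminase, which frees ammonia from glutamine, had levels of 5.68 and 5.62 on HFD at 9 months, against 6.46 and 6.77 on ND at 9 months. At 3 months its levels were 6.94 and 6.90 on HFD, against 7.36 and 7.12 on ND. The HFD arrays were below the ND arrays at both durations, and the HFD 9-month pair was the lowest of all. Gls2 fell at 9 months by 0.96 ± 0.19 (SE, limma adjusted p = 0.036). Glul, glutamine synthetase, was at 0.55 ± 0.17 and did not pass (limma adjusted p = 0.10), and Glud1, glutamate dehydrogenase, was at 0.24 ± 0.25. Another probe of Glud1 gave 0.72 at 9 months, with levels of 7.47 and 7.98 on HFD against 6.92 and 7.08 on ND.

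**Figure D2:**
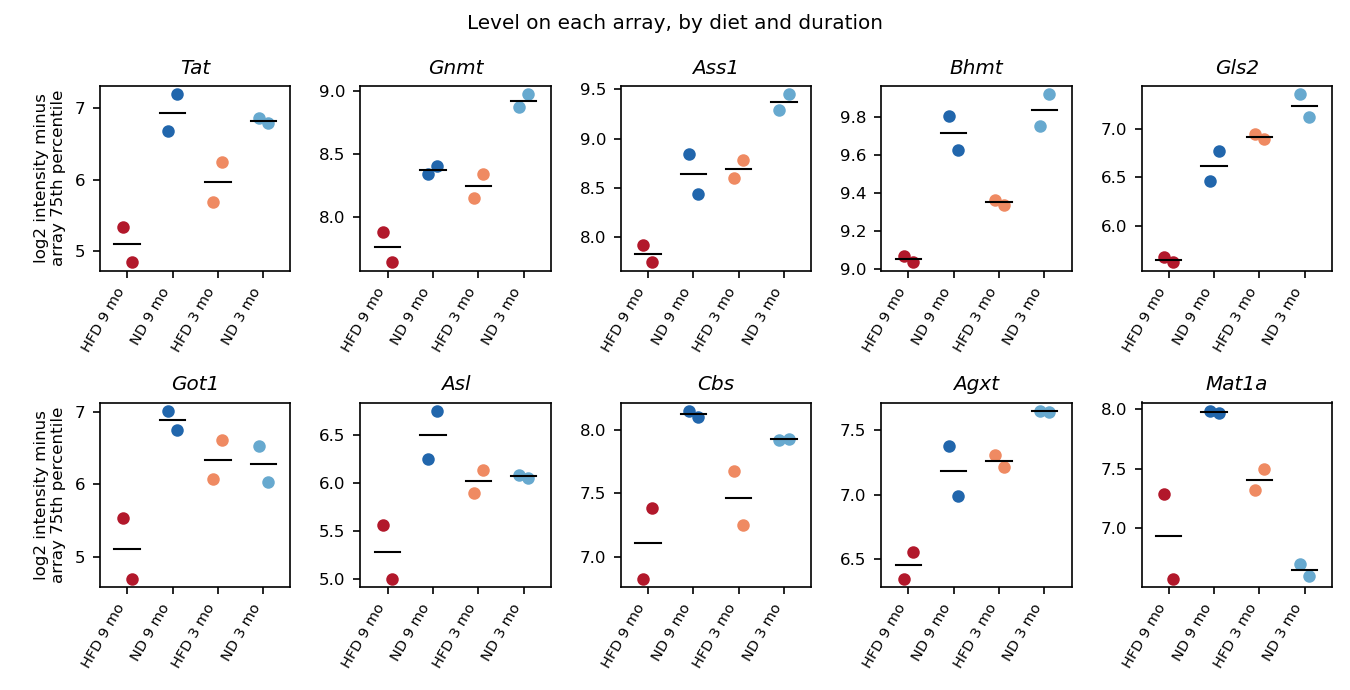
Level (y axis, log2 intensity minus the 75th percentile of the array) on each of the 8 arrays for 10 genes, by group (x axis: HFD 9 months, ND 9 months, HFD 3 months, ND 3 months); points are mice and lines are group means, and each panel has its own y range. In Tat, Gnmt, Ass1 and Bhmt both HFD arrays lie below both ND arrays of the same duration, while in Mat1a the order of the diets differs between durations.

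Apart from Tat, no gene of the remaining branches passed at 9 months. All 6 methionine and transsulfuration genes were below 0, with a median of -0.98, and in all 6 the HFD arrays lay below the ND arrays. The lowest was Cth, cystathionine gamma-lyase, at -1.64 ± 0.39 (limma adjusted p = 0.054). The 6 genes of aromatic amino acids and histidine were also all below 0, from Tat to Fah, the last enzyme of tyrosine breakdown, at -0.12 ± 0.18. Between them lay Hpd and Hgd, the middle enzymes of tyrosine breakdown, at -0.86 ± 0.23 and -1.07 ± 0.51. Tdo2, which opens the tryptophan ring, was at -0.55 ± 0.35, and Hal, histidine ammonia-lyase, at -0.61 ± 0.26. Ahcy, which splits S-adenosylhomocysteine, was at -0.94 ± 0.24. Of the 6 serine and glycine genes 5 were below 0, the lowest being Sds, serine dehydratase, at -1.17 ± 0.47. The serine hydroxymethyltransferases were at -0.33 ± 0.23 (Shmt1, cytosolic) and -0.05 ± 0.35 (Shmt2, mitochondrial). Of the glycine cleavage system, Gldc was at -0.55 ± 0.24 and Amt, the 1 gene of this branch above 0, at 0.27 ± 0.24. Of the 3 proline and ornithine genes Oat, ornithine aminotransferase, was at -2.01 ± 0.70, Prodh, proline dehydrogenase, at -0.39 ± 0.30 and Aldh4a1, the next enzyme of proline breakdown, at 0.41 ± 0.22. The subunits of the branched-chain ketoacid dehydrogenase were at -0.17 ± 0.21 (Bckdha) and 0.34 ± 0.27 (Bckdhb).

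The pair of HFD 9-month mice differed from each other in these genes. HFD 9 months mouse 2 had the lowest level of all 8 arrays in 26 of the 35, and 30 of 35 were lower in mouse 2 than in mouse 1, with a median difference of -0.51, against 0.03 over all features. Against the mean of the ND 9-month arrays, mouse 2 had 29 members below with a median of -0.81, and mouse 1 had 26 below with a median of -0.43. On both arrays 25 members lay below. Every measured hepatocyte marker was instead higher in mouse 2 than in mouse 1, with Alb at 10.26 against 9.79 and Serpina1a at 10.73 against 9.71. Oat was the widest case, with levels of 6.45 and 4.17 on the HFD 9-month arrays, against 7.73 and 6.92 on the ND 9-month arrays. Without HFD 9 months mouse 2, the median of the members was -0.43 and 3 passed at 9 months: Tat and Cbs lower and Bckdhb higher on HFD, while 12.4% of all features passed. Asl, Got1 and Gls2 then did not pass, at -0.94, -1.35 and -0.94.

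**Figure D3:**
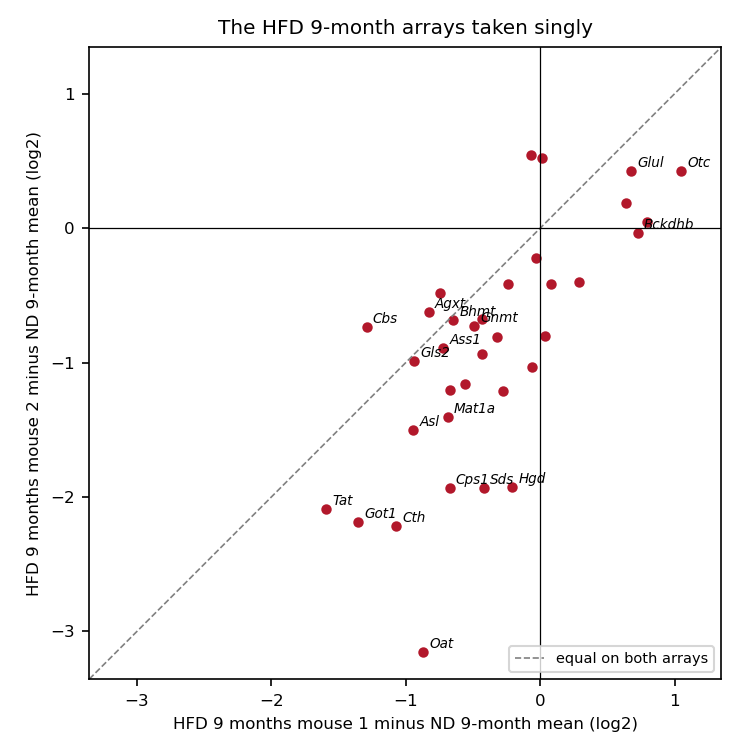
Each point is 1 of the 35 genes: log2 level on HFD 9 months mouse 1 (x axis) and mouse 2 (y axis), both minus the mean of the ND 9-month arrays, with the dashed line of equality. Most points lie below the line, with 30 of 35 lower in mouse 2, and 25 lie below 0 on both axes.

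The members were also set beside features of like brightness. Among features with a mean level of 6 to 8, the median HFD minus ND difference at 9 months was -0.59 over 20 members and -0.02 over all 1144 features. Among those of 4 to 6 it was -1.12 over 8 members and 0.09 over all 2022 features. In the other bands it was -0.68 over 3 members and 0.12 over all features (2 to 4), -0.66 over 3 members and -0.18 over all (8 or more), and 0.27 for Amt and -0.02 over all (below 2).

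At 3 months the members showed no common direction. Of the 35, 20 were below 0 with a median of -0.05, against -0.01 over all features. Bright features were themselves lower on HFD at 3 months: at a level of 6 to 8 the median was 0.03 over 20 members and -0.21 over all 1144 features, and at 8 or more -0.68 over 3 members and -0.42 over all 339. None passed the test (limma), where 5.18% of all features did (3.67% lower and 1.51% higher on HFD), and 6 members and 5294 of the 20165 features had an unadjusted p under 0.05. With only the arrays of the compared groups in the fit, 2 passed, Bckdhb and Mat1a, both higher on HFD. The share of all features that passed in that fit is not given, so this count is no result about the members. Without HFD 9 months mouse 1, and likewise without mouse 2, 3 members passed at 3 months, while 11.1% of all features did. Arrays of the diets were apart in 10 members lower on HFD (28.6%, against 35.4% of all features) and 9 higher (25.7%, against 35.6%). After quantile normalization the split turned to 14 below and 21 above 0, with a median of 0.18, and in the table of log2 values deposited by the authors it was 13 below and 22 above, with a median of 0.13.

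Mat1a, the liver's methionine adenosyltransferase, which makes S-adenosylmethionine, had levels of 7.29 and 6.57 on HFD at 9 months, against 7.99 and 7.96 on ND at 9 months. At 3 months the levels were 7.32 and 7.49 on HFD, against 6.70 and 6.60 on ND. The HFD arrays were below the ND arrays at 9 months and above them at 3 months. Neither difference passed, at -1.05 ± 0.26 for 9 months (limma adjusted p = 0.061) and 0.76 ± 0.26 for 3 months (limma adjusted p = 0.14).

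In the fit of diet that pooled both durations, with duration as its covariate, 7 members fell on HFD and 0 passed as higher. They were Tat, Ass1, Gnmt, Bhmt, Cbs, Agxt and Gls2, and they belong to 5 of the 8 branches, with 3 of them in methionine and transsulfuration. The share of members lower was 20%, where 11.8% of all features passed as lower and 22.1% in either direction (10.3% higher). In 5 members all HFD arrays lay below all ND arrays (14.3%, against 14% of all features), and in 1 above (2.86%, against 11.5%). The median of the members was -0.44, against 0.00 over all features. This comparison shares all its arrays with those of the single durations, so its values are no separate evidence. Without ND 3 months mouse 2 the count was 1 (9.12% of all features passed), and it was 4 (10.3% to 19.1%) without ND 3 months mouse 1, either ND 9-month mouse, HFD 3 months mouse 2 or HFD 9 months mouse 1.

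Tat fell over both durations by 1.35 ± 0.27 (SE, limma adjusted p = 0.015), and it passed in each of the 8 fits that left out 1 array. Ass1, argininosuccinate synthase, which joins citrulline and aspartate in the urea cycle, had levels of 7.92 and 7.74 on HFD and 8.84 and 8.43 on ND at 9 months. At 3 months Ass1 had levels of 8.60 and 8.78 on HFD and 9.29 and 9.45 on ND. The diets did not overlap within either duration, and the fall was 0.74 ± 0.15 (SE, limma adjusted p = 0.014).

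Gnmt, glycine N-methyltransferase, which uses up S-adenosylmethionine, had levels of 7.88 and 7.64 on HFD and 8.34 and 8.40 on ND at 9 months. At 3 months its levels were 8.15 and 8.34 on HFD and 8.87 and 8.97 on ND. Again the diets did not overlap within either duration, and Gnmt fell by 0.64 ± 0.12 (SE, limma adjusted p = 0.014). Bhmt, which remethylates homocysteine with betaine, had levels of 9.07 and 9.03 on HFD and 9.80 and 9.63 on ND at 9 months. At 3 months Bhmt had levels of 9.36 and 9.34 on HFD and 9.75 and 9.92 on ND. All 4 HFD arrays lay below all 4 ND arrays, and Bhmt fell by 0.57 ± 0.12 (SE, limma adjusted p = 0.018).

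Ass1, Gnmt and Bhmt are the 3 members with a mean level of 8 or more. Over all 339 features of that band the median HFD minus ND difference was -0.42 at 3 months and -0.18 at 9 months. The part of this shift in their falls was not tested. Without ND 3 months mouse 2, Ass1, Gnmt and Bhmt did not pass, with limma adjusted p of 0.055, 0.057 and 0.070. Among the other processing settings Ass1 and Gnmt each passed in 5 of 8 and Bhmt in 4 of 8, with smallest falls of 0.35 for Ass1, 0.32 for Gnmt and 0.11 for Bhmt (highest limma adjusted p of 0.19, 0.16 and 0.69).

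Cbs, cystathionine beta-synthase, had levels of 6.83 and 7.39 on HFD and 8.15 and 8.10 on ND at 9 months. At 3 months its levels were 7.67 and 7.25 on HFD and 7.92 and 7.93 on ND. All 4 HFD arrays were below all 4 ND arrays, and Cbs fell by 0.74 ± 0.20 (SE, limma adjusted p = 0.036). Agxt, the peroxisomal enzyme that turns glyoxylate into glycine, had levels of 6.35 and 6.56 on HFD and 7.37 and 6.99 on ND at 9 months. At 3 months Agxt had levels of 7.31 and 7.21 on HFD and 7.64 and 7.64 on ND. The diets were apart within each duration, and Agxt fell by 0.55 ± 0.15 (SE, limma adjusted p = 0.038). Gls2 fell over both durations by 0.64 ± 0.18 (SE, limma adjusted p = 0.040). With 1 array left out, Cbs passed in 2 of 8 fits, Agxt in 1 of 8 and Gls2 in 0 of 8. Among the other processing settings each of the 3 passed in 4 of 8. Their smallest falls there were 0.49 for Cbs, 0.20 for Agxt and 0.43 for Gls2 (highest limma adjusted p of 0.12, 0.35 and 0.20).

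The promoters of Tat, Ass1, Bhmt and Gnmt are shown because these genes passed over both durations in at least 7 of the 8 fits that left out 1 array, a choice made after their values were seen. Each is the 250 bases before the RefSeq start in GRCm38.p6, read 5′ to 3′ on the strand of the gene, with capitals for a match to any of the 4 motifs named after them. The places are chr8:109990186-109990435 (plus strand) for Tat, chr2:31470020-31470269 (plus) for Ass1, chr13:93637759-93638008 (minus) for Bhmt and chr17:46729166-46729415 (minus) for Gnmt.
Tat: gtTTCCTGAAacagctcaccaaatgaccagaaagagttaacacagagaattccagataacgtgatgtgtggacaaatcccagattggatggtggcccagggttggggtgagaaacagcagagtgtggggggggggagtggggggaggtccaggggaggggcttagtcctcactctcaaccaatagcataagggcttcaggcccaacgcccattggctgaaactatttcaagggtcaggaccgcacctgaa
Ass1: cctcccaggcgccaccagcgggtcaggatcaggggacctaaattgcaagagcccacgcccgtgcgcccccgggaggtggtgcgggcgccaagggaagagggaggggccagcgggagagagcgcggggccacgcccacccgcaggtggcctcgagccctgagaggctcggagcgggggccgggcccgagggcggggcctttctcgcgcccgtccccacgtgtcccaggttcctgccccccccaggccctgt
Bhmt: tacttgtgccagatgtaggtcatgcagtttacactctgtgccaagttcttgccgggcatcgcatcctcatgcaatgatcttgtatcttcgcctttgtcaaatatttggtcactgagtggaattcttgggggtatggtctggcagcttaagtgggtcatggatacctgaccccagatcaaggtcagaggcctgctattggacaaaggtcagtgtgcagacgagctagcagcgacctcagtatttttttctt
Gnmt: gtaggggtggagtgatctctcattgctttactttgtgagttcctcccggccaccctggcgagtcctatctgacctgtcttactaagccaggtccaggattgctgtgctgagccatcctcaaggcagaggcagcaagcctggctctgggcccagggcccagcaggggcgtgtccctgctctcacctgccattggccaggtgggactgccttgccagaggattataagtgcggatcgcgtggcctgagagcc
The motifs were searched on both strands in 32536 promoters, of which 27 belonged to members, and Arg1, Asl, Cps1, Cth, Gls2, Gpt, Mat1a and Sds had no entry. The TATA box TATAAA was in 4 of the 27 (14.8%, against 12.3% of all). The C/EBP core TTNNGNAA was in 7 (25.9%, against 36.8%), among them Tat, where it begins 248 bases before the start. The cAMP response core TGACG was in 1, Shmt1 (3.70%, against 17.9%), and the forkhead motif TGTTTAC in 0 (against 3.17%). Of the 4 sequences shown, 3 held no match to any of these motifs. A match is a description of letters only, and no match says only that the letters are not in this window.

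Between 9 and 3 months on HFD, 33 of 35 members were below 0 with a median of -0.65, against 0.00 over all features. None passed (limma), where 0.00992% of all features did (0.00496% in each direction), while 18 members, all lower at 9 months, and 3120 of the 20165 features, 1817 of them lower, had an unadjusted p under 0.05. Of the other settings tried, the table deposited by the authors gave 1 call, Gls2, and the share of all features there is not given. In 26 members the HFD 9-month arrays lay below the HFD 3-month arrays (74.3%, against 23.3% of all features), and in 1 above (2.86%, against 21%). Without HFD 9 months mouse 2 the median was -0.40 and 0 passed (0.0893% of all features), and without mouse 1 it was -0.95 and 10 passed (9.59% of all features).

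Between 9 and 3 months on ND, 24 of 35 were below 0 with a median of -0.22, against -0.07 over all features. None passed (limma), where 1.04% of all features did (0.595% lower and 0.441% higher), and 7 members and 3198 of the 20165 features had an unadjusted p under 0.05. In 17 members the ND 9-month arrays lay below the ND 3-month arrays (48.6%, against 37.1% of all features), and in 7 above (20%, against 23.4%). The fit with trend and robust moderation gave 1 call, Mat1a, and the share of all features there is not given. In the fit used elsewhere here Mat1a was at 1.33 ± 0.26 (limma adjusted p = 0.085). The comparison on HFD and the one of diets at 9 months share the HFD 9-month arrays, and their values stand side by side without being compared.

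The difference of the diet effects between 9 and 3 months was below 0 in 28 of 35 members, with a median of -0.46, against 0.06 over all features. None passed, and none of the 20165 features did (limma), with 4 members and 1537 features at an unadjusted p under 0.05. The larger diet differences at 9 months are therefore not shown to differ from those at 3 months for any single gene.

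**Figure D4:**
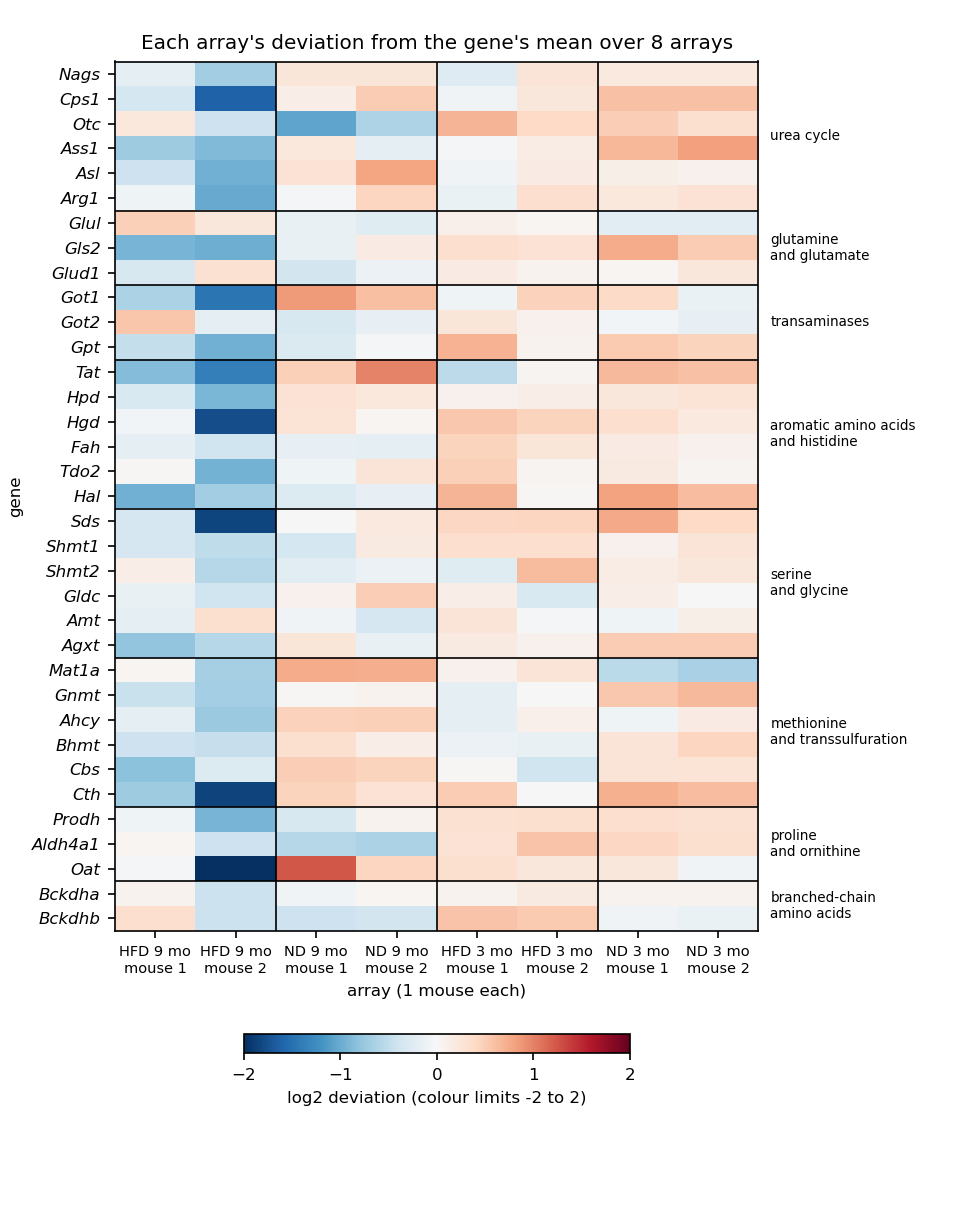
Deviation of each array from the mean of the gene over 8 arrays (colour, log2; values beyond the limits take the end colour) for 35 genes (rows, by branch) and 8 arrays (columns: HFD 9 months, ND 9 months, HFD 3 months, ND 3 months). HFD 9 months mouse 2 is the lowest array in 26 of 35 genes.

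Other genes of amino acid metabolism were spread to both sides of 0. Of 82 listed, 79 were measured, with a median HFD minus ND difference of -0.05 at 9 months, 0.07 at 3 months and -0.02 over both durations. At 9 months 3 fell and 1 rose, at 3 months 2 fell and 0 rose, and over both durations 8 fell and 8 rose. The shares lower were near those of all features, at 3.8% at 9 months against 4.73% and 2.53% at 3 months against 3.67%. The shares higher were 1.27% at 9 months against 3.56% and 0% at 3 months against 1.51%. Over both durations 10.1% passed as lower against 11.8%, and 10.1% as higher against 10.3%. The genes named next are therefore single values and no result about the list. Dbt, the transacylase of the branched-chain ketoacid dehydrogenase, fell at 9 months by 1.05 ± 0.18 (limma adjusted p = 0.026), and Slc7a2, a carrier of cationic amino acids, by 1.04 ± 0.23 (limma adjusted p = 0.044). Psat1, an enzyme of serine synthesis, rose by 2.21 ± 0.42 at 9 months (limma adjusted p = 0.031). Its levels were -1.23 and -0.44 on HFD, against -3.28 and -2.80 on ND, at 9 months. Psat1 was dim, well above background on only 7 of the 8 arrays. In the table deposited by the authors the difference of Psat1 was 1.11 (limma adjusted p = 0.023). With 1 array left out, Dbt passed at 9 months in 4 of 8 fits, Psat1 in 3 and Slc7a2 in 1.

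At 3 months Csad, an enzyme of taurine synthesis, had levels of 2.70 and 2.89 on HFD, against 5.87 and 6.73 on ND, and fell by 3.51 ± 0.51 (limma adjusted p = 0.023). Gcat, of threonine breakdown, fell by 1.08 ± 0.19 (limma adjusted p = 0.033). Csad and Gcat each passed at 3 months in 4 of 8 fits with 1 array left out, and in none of those without an array of the 3-month groups. Over both durations Asns, asparagine synthetase, fell by 3.88 ± 0.74 (limma adjusted p = 0.013), with levels of -1.67 and 0.02 on HFD and 1.59 and 4.98 on ND at 9 months. Slc38a2, a carrier of small neutral amino acids, fell by 1.11 ± 0.21 (limma adjusted p = 0.012). Hnf4a, a transcription factor of hepatocytes, fell by 0.64 ± 0.13 (limma adjusted p = 0.016). Hnf4a did not pass without either ND 3-month mouse and passed in 5 of 8 other settings, with a smallest fall of 0.33 (highest limma adjusted p of 0.15). Asns, Slc38a2 and Psat1 passed over both durations in all 8 fits that left out 1 array.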

How the data were processed

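Liver RNA of 8 mice was measured on 1-colour arrays, 1 per animal, and the 2 arrays of a group hold separate mice per the labels. The deposited array files come from Agilent Feature Extraction 10.7.1.1, per the submitters' processing notes, and per the file headers their processed signal is a background-subtracted intensity. The deposited flags are other values, 0 or 1 per spot. The value table deposited by the authors holds log2 values, with the order of the median signal on each array.

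Control spots (3671) were left out, outlier spots were dropped, and log2 processed signal was centred on the 75th percentile of each array with a pseudocount of 0. Probes were kept if both arrays of any group showed them well above background, and the brightest one stood for its gene. Symbols come from RefSeq, build GRCm38.p6, used for names and promoters. The arrays are annotated on mm9, from which no coordinate is given.

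Tests used lmFit and eBayes of limma 3.58.1 (R 4.3.3, package data.table in version 1.17.8) on 4 group means, and an additive fit of diet and duration for both durations. P-values were adjusted over 20165 features. Figures used Python 3.11.15, matplotlib 3.10.9 and pandas 2.3.3. Data on 20165 features were also simulated, with the noise of each feature pooled over the 4 groups and equal on all arrays. There the 9-month test of diets found 6 of 67 features changed by -1, 42 of 67 changed by -2 and 42 of 66 changed by -3, with 5 false calls. In the measured data the median standard deviation of a group over all features was 0.31 for HFD at 9 months. It was 0.10 to 0.18 in the other groups, so these rates do not describe the 9-month comparison itself.

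The members and lists were chosen with earlier results of these data known. Values on all arrays are given for members past the threshold in any comparison, filled up to 10 by the smallest p, each branch is described by at least its member with the smallest p, and up to 4 other genes per comparison of diets are named, of which 1 is not reported here. Oat's and Cps1's array values were added after they were seen. Alternatives were quantile normalization, normexp (offset 50, on the median signal), the table of the authors, 2 filters on dim probes, the mean of all probes, the compared groups only, a replicate block, trend and robust moderation, and leaving out each array. After the printed promoters had been read, a second search with 2 further motifs was run, and because those were picked to match the sequences its outcome is not used.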

Additional observations from a re-analysis of the deposited data

Results flagged for a closer look

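In 7 members the arrays of the compared groups were fully apart and in opposite directions, either HFD against ND at the 2 durations or 9 against 3 months on the 2 diets. The difference of the diet effects between 9 and 3 months was -1.17 for Asl (limma adjusted p = 0.57), -1.83 for Got1 (0.51), -1.30 for Hgd (0.72) and -0.34 for Fah (0.77). It was -1.81 for Mat1a (0.38), -0.86 for Ahcy (0.64) and -2.22 for Oat (0.68). None passed. Of all features, 1663 (8.25%) met the same criterion, against 7 of 35 members, and each such pattern rests on 2 mice per group.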

How the results depend on the processing

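With 2 mice per group the counts of members past the threshold depend strongly on the setting. The counts in this paragraph stand without the share of all features that passed in the same setting. A higher count is therefore not by itself a stronger result for the members. For HFD against ND at 9 months (4 members) the count was 9 with normexp, 11 in the table of the authors, 0 with no filter on dim probes, 7 when probes had to pass on all arrays, 0 with the compared groups only and 12 with trend and robust moderation. Over both durations (7 members) it was 2 after quantile normalization, 13 with normexp and 1 with no filter. At 3 months (0 members) it was 2 with the compared groups only. Between 9 and 3 months it was 1 on HFD in the table of the authors and 1 on ND with trend and robust moderation, against 0. With 1 array left out, the counts ran from 0 to 11 at 9 months, 1 to 9 over both durations, 0 to 3 at 3 months, 0 to 10 between durations on HFD, 0 to 1 on ND and 0 to 0 for the difference of the diet effects. The median of the members, with arrays left out as an alternative chosen after seeing the data, ran from -0.81 to -0.43 at 9 months, -0.53 to -0.23 over both durations, -0.07 to 0.00 at 3 months, -0.95 to -0.40 between durations on HFD, -0.25 to -0.18 on ND and -0.67 to -0.23 for the difference of the diet effects. Signs of small differences moved: without HFD 9 months mouse 2, 26 of 35 members were below 0 at 9 months, against 28 with it. The cause of the moved counts was not tested. With the replicate number as a block, 2 members passed at 9 months and 4 over both durations. The replicate number was also the column that an array occupied on its slide. The deviations of same-numbered arrays correlated at -0.02 to 0.14 between groups. With 2 arrays per group this cannot show whether mice were paired. All 35 members were well above background on all arrays, and the part of the low signal of HFD 9 months mouse 2 was not tested.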
